A study of Cochliomyia hominivorax with 18 samples.

Results

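Untreated adult midgut was compared with untreated larval midgut in the New World screwworm, Cochliomyia hominivorax. The comparison used the 3 control libraries of each stage, chosen by the stage and treatment in their titles, which are 6 of the 18 libraries of the series. The controls were production insects sampled before rearing with tetracycline, an antibiotic, and the other 12 libraries come from both stages during tetracycline (on-Tc) and after it (post-Tc). Strain, sex, age, diet and the number of guts per library were not stated in the labels. The protocol describes RNA taken from guts, with poly(A) selection, and each sample is labelled as midgut. The label could not be checked against midgut markers, because the count table identifies transcripts by a gene number and a transcript number and pairs no gene names with them. The libraries of a stage are not tied in the labels to different animals or cultures. The p-values therefore measure only the spread between these libraries, which may be technical.

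Screwworm larvae feed in the wounds of living mammals, while adult flies take liquid food. The fly midgut secretes digestive enzymes, absorbs nutrients and encloses the food in a chitinous sleeve, the peritrophic matrix. In Drosophila the larval midgut epithelium is shed at metamorphosis and a new adult epithelium is built from progenitor cells, so larval and adult midguts are different tissues. In whole guts, fewer cells of a type and less RNA per cell cannot be told apart.

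Adult control libraries held 51759050, 60112898 and 19158409 counts, and larval control libraries 55505233, 55019148 and 78052370. Adult control 3 was thus the shallowest of the 6. The first principal component of log2 CPM (counts scaled to the library total) over the 6 libraries took 72.4% of the variance and put all adults on one side and all larvae on the other. Libraries of different stages differed at least 2-fold, on a log2(CPM + 1) scale, in 23.9% to 31.1% of tested transcripts. Within a stage the share was 8.07% to 15.2% for pairs of adults and 4.53% to 12.8% for pairs of larvae. Adult control 1 and larval control 2 lay farthest from the other libraries of their stage. The biological coefficient of variation was 0.550 among adults and 0.476 among larvae.

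The numbers of transcripts detected in the stages overlapped, and the most abundant transcripts were largely different ones. At equal totals of 19158409 counts, 14067, 14192 and 14175 transcripts were detected in the adult libraries. The larval libraries gave 14083, 14016 and 13541. The ranges overlapped, and the adult mean was 265 transcripts above the larval mean (exact permutation test, two-sided, p = 0.2; 0.4 after Benjamini-Hochberg adjustment over the 4 library measures tested). With 3 libraries against 3 this exact permutation test cannot go below p = 0.1. Without larval control 3, the difference was 94.98 transcripts. Counted at each library's own total the sign turned, with 201 fewer in adults.

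A level of 1 CPM or more was reached by 8937, 9242 and 9698 transcripts in adults and by 9308, 8964 and 8921 in larvae. These ranges overlapped as well (adult mean 228 higher; exact permutation test, two-sided, p = 0.6; adjusted p = 0.6). The difference was 406 without adult control 1, 25.2 without adult control 3 and 350 without larval control 1. The sets were largely shared at this level. Of the 8489 transcripts at 1 CPM in all adult libraries and the 8430 in all larval libraries, 7748 were in both, which is 91.3% of the adult and 91.9% of the larval set.

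The overlap shrank as the level rose. At 100 CPM, 639 transcripts were shared, 70.1% of 912 in adults and 60.7% of 1052 in larvae. At 1000 CPM, 40 were shared, 51.9% of 77 in adults and 31.2% of 128 in larvae. A total of 30 of those 77 adult transcripts were under 1000 CPM in every larval library, and 57 of the 128 larval ones were under it in every adult library. The stages thus shared a smaller part of their transcripts the higher the level required. Libraries of a single stage did so as well. At 1 CPM, 8489 transcripts were in all adult libraries against 9292 per library on average, and in larvae 8430 against 9064. At 1000 CPM the numbers were 77 against 142 in adults and 128 against 175 in larvae. How much of the decline between stages goes with this spread within a stage was not tested.

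The counts were concentrated in few transcripts, more so in adults. The 10 most abundant transcripts of a library took 31.8%, 17.7% and 18.1% of the counts in adults and 8.96%, 16.02% and 12.4% in larvae. Every adult library lay above every larval one, which is the smallest p this design allows (mean difference 10.1 percentage points; exact permutation test, two-sided, p = 0.1; adjusted p = 0.4). Adult control 1 was far above the other adults, and without it the difference was 5.47 percentage points. Transcripts needed to reach 50% of the counts numbered 62, 148 and 164 in adults and 219, 119 and 187 in larvae. Those ranges overlapped (mean 50.3 fewer in adults; exact permutation test, two-sided, p = 0.4; adjusted p = 0.533). The adult minus larval difference was -19 without adult control 1, -28.3 without larval control 1 and -78.3 without larval control 2. Over the 100 most abundant transcripts the shares were 42.6% to 55.2% in adults and 36.3% to 47.4% in larvae, and over the first 1000 they were 77.5% to 83.8% and 77.1% to 82.6%. At both of these depths of the list the ranges of the stages overlapped.

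**Figure D1:**
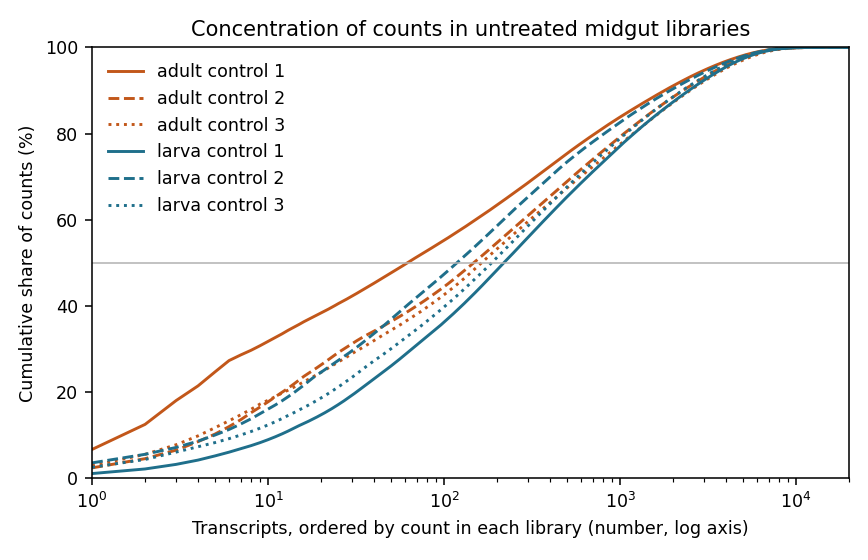
Cumulative share of counts (%) against the number of transcripts, ordered from the most abundant in each library (log axis), for 3 adult (orange) and 3 larval (blue) control libraries. The curves of the stages overlap at the first transcript, the adult ones are higher at 10 transcripts, with 17.7% to 31.8% of counts against 8.96% to 16.02% in larvae, and all 6 curves meet near the top right.

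The lists of the 10 most abundant transcripts of the stages had 1 transcript in common. Libraries of a stage also differed here. Only 5 transcripts were among the 10 most abundant of all 3 adult libraries, and 4 of all 3 larval libraries. Ranked by mean CPM after TMM scaling (edgeR's correction for library composition), the first 10 adult transcripts stood at 9106 to 39974 CPM. Their mean larval level ranged from 6.22 to 23546 CPM with a median of 11.6 CPM, and their median rank in larvae was 5285. They took 30.7%, 16.7% and 17.3% of adult counts and 1.602%, 4.27% and 2.89% of larval counts. In edgeR's quasi-likelihood test 9 of the 10 were higher in adults at an FDR of 0.05, and 8 were at least 10-fold higher by mean CPM. Across all 12599 transcripts tested, 27.4% were called, 14.4% higher in adults and 13% lower. The list was ranked on the adult libraries tested here, so its direction is in part given by that choice. In treated adults, which played no part in the ranking, the same 10 took 12.6%, 15.04% and 11.95% of counts on-Tc and 22.2%, 24.6% and 21.1% post-Tc.

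The first 10 larval transcripts reached 7226 to 23546 CPM and had a median rank of 142 in adults, with a median adult level of 1337 CPM. They took 7.65%, 14.5% and 12.1% of larval counts and 7.44%, 4.59% and 3.82% of adult counts. In edgeR's test 7 of the 10 were lower in adults. Most of the adult list was thus weakly expressed in larvae, while the larval list had a higher median level in the other stage. Even so, 5 of the 10 larval transcripts were over 10-fold lower in adults by mean CPM. The contrast held for the first 20 transcripts but not for the first 50. For the first 20, the median level in the other stage was 36.0 CPM for the adult list and 446 CPM for the larval list. For the first 50, it was 888 CPM for the adult list and 725 CPM for the larval list. The levels also varied between libraries of a stage. The median ratio of highest to lowest library was 3.78 over the adult list and 1.88 over the larval list. Adult control 1 was the highest adult library for 6 of the adult list, and larval control 2 the highest larval library for 8 of the larval list.

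The transcript g12854.t1 was the only one among the 10 most abundant of all 6 libraries, and it was picked after its values were seen. Its level was 66058, 19749 and 16196 CPM in adults and 6766, 39504 and 24368 CPM in larvae. The ranges overlapped widely, and the log2 difference of 0.53 ± 0.64 (SE) did not pass edgeR's test (FDR 0.569; approximate 95% interval -0.72 to 1.78). What its product does is not given in the files.

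The naming rule took, per direction, the most abundant called transcript whose stages did not overlap and the most abundant called transcript with 0 counts in the other stage. The most abundant adult transcript, g11373.t1, stood at 80058, 14971 and 24894 CPM in adults and 675, 2531 and 1653 CPM in larvae. The lowest adult library was thus well above the highest larval one, and the adult libraries differed among themselves more than the larval ones. The transcript rose by 4.63 ± 0.94 (log2, SE) from larvae to adults, a 24.7-fold difference (edgeR FDR 0.00236). Without adult control 1 the log2 difference was 3.62 (edgeR FDR 0.00925). In larvae it ranked 91st by mean CPM, so it was an abundant transcript in both stages.

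The transcript with the next gene number, g11374.t1, went the other way. It was the most abundant in larvae among transcripts called lower whose stages did not overlap. Stages did not overlap, with all adults below, for 21% of all tested transcripts, and with all adults above for 21.5%. It stood at 8215, 16154 and 16300 CPM in larvae and 253, 28.1 and 42.4 CPM in adults. Every larval library was far above every adult one, and adult control 1 was the highest adult library. With an edgeR FDR of 0.000137 the transcript fell by 6.97 (log2, SE 0.98), from rank 3 in larvae to rank 1211 in adults. Without adult control 1 it fell by 8.59 (edgeR FDR 4.5e-05). The file gives no genome positions, so whether consecutive numbers mean neighbouring genes was not tested.

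Among transcripts with 0 counts in the other stage, the most abundant in adults was g5024.t1, with 1553, 88 and 272 counts in adults and 0 in each larval library. These are 35.9, 1.35 and 12.1 CPM, so the adult libraries spanned a wide range. Against a floor of 3 counts per library the level was at least 346-fold higher in adults, and at least 142-fold without adult control 1. With all libraries the FDR was 0.00910 by edgeR and 0.0738, not called, by limma-voom. Without adult control 1 the edgeR FDR was 0.0209. In larvae the corresponding transcript was g6640.t1, with 637, 258 and 2119 counts in larvae and 0 in each adult library, or 9.66, 5.18 and 25.9 CPM. It was at least 164-fold lower in adults, and at least 89.5-fold lower without larval control 3. Its edgeR FDR was 0.000788 with all libraries and 0.00207 without larval control 3. In levels these on/off transcripts were modest, ranking 4527th in adults and 4963rd in larvae.

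The most abundant transcripts with small, uncalled differences were g18440.t1 and g2154.t1. The level of g18440.t1 was 8391, 7900 and 5328 CPM in adults and 9216, 10151 and 9144 CPM in larvae. Its log2 difference was -0.40 ± 0.26 (SE; edgeR FDR 0.275), with an approximate 95% interval of -0.91 to 0.11. That of g2154.t1 was 5036, 4659 and 3334 CPM in adults and 5597, 6003 and 5439 CPM in larvae, a log2 difference of -0.39 ± 0.26 (SE; edgeR FDR 0.291). In both, every adult library lay below every larval one although the difference was not called.

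**Figure D2:**
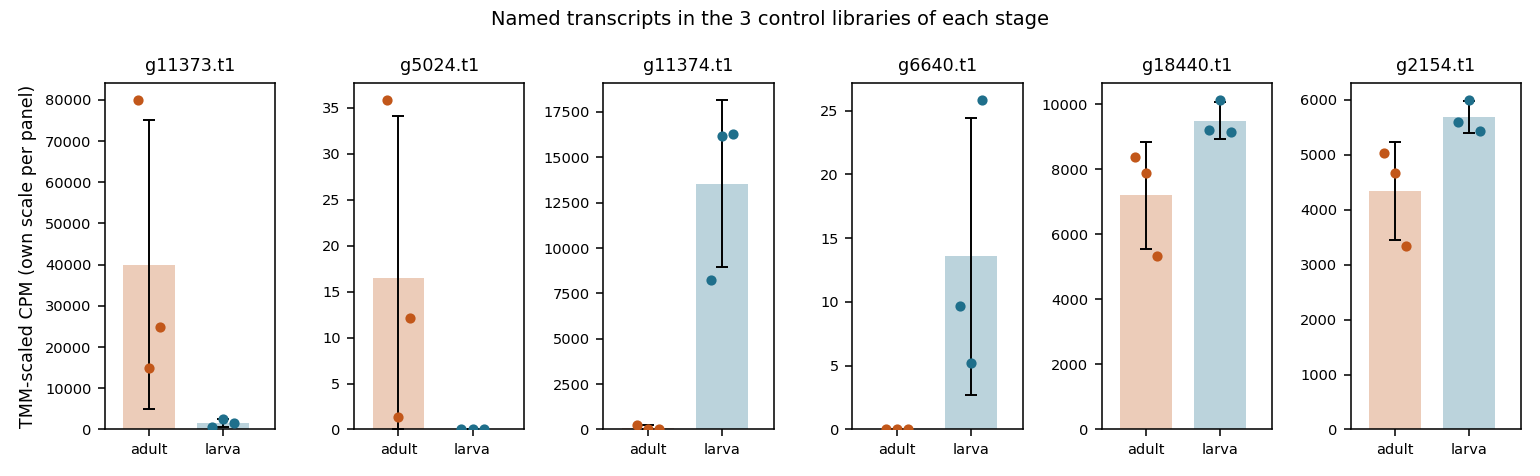
TMM-scaled CPM of the 6 named transcripts in the control libraries of each stage, with a linear scale of its own per panel; points are libraries, bars the mean of 3 and error bars the SD, drawn no lower than 0. The first 4 panels show transcripts that rose or fell, such as g11374.t1 with 28.1 to 253 CPM in adults and 8215 to 16300 CPM in larvae, and the last 2 panels transcripts that were abundant in both.

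Over all transcripts tested, calls were more frequent among abundant ones. Transcripts were put in classes by their mean CPM over the 6 libraries. In the class under 1 CPM, 16.3% of 2972 were called, with 10.3% higher and 6.02% lower in adults. From 1 to 10 CPM 27.5% of 3751 were called and from 10 to 100 CPM 29.3% of 4472 with 582 higher and 450 lower in the first of these classes and 647 and 664 in the second. From 100 to 1000 CPM 42.9% of 1243 were called. At 1000 CPM and over 59.6% of 161 were called, with 32 higher and 64 lower. Called transcripts thus leaned towards adults in the lowest class and towards larvae in the highest.

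The precision of the fit differed between the classes and was best in the middle. The median SE of the log2 difference was 0.90 under 1 CPM, 0.46 from 1 to 10 CPM, 0.30 from 10 to 100 CPM, 0.35 from 100 to 1000 CPM and 0.46 at 1000 CPM and over. The median absolute log2 difference was 1.14 under 1 CPM, 0.74 from 1 to 10 CPM and 0.53 from 10 to 100 CPM. It was 0.81 from 100 to 1000 CPM and 1.65 at 1000 CPM and over. Fitted differences of at least 2-fold were found for 55.1% of transcripts under 1 CPM, 26.5% from 10 to 100 CPM and 62.7% in the top class. The size of the difference was thus smallest in the middle classes. The stages did not overlap in CPM for 74.5% of the top class, against 42.6% of all transcripts tested.

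**Figure D3:**
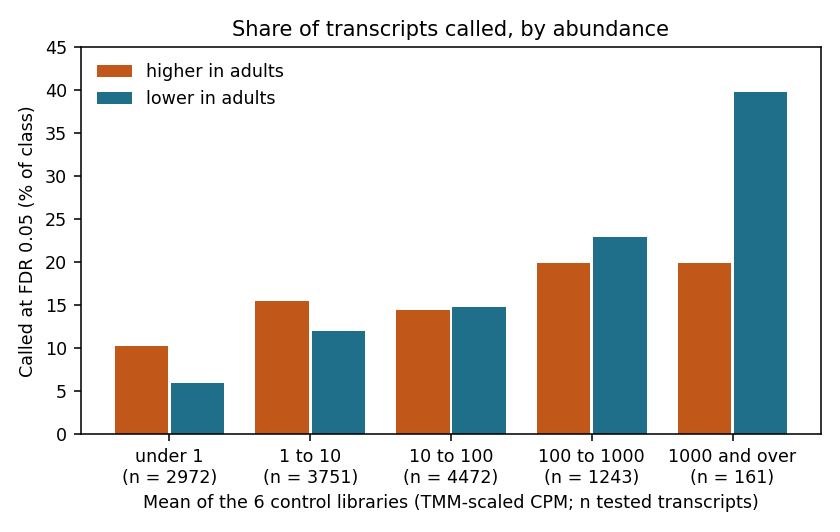
Share of tested transcripts called at an FDR of 0.05 by edgeR (%), by class of mean TMM-scaled CPM over the 6 control libraries, higher (orange) and lower (blue) in adults. The shares rise from 10.3% and 6.02% under 1 CPM to 19.9% and 39.8% at 1000 CPM and over.

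The counts of both called lists lay in a small number of transcripts, as did those of whole libraries. Over all transcripts, 62 to 164 in adults and 119 to 219 in larvae held 50% of a library's counts. In adults, the 10 most abundant of the 1814 transcripts called higher held 43.2% of that list's adult counts, and 14 held 50%. In larvae, the 10 most abundant of the 1642 called lower held 19.7% of that list's larval counts, and 42 were needed for 50%. The adult counts of the first list were thus concentrated in fewer transcripts than the larval counts of the second. Adult control 1 weighs in this, with 31.8% of its counts in its 10 most abundant transcripts against 17.7% and 18.1% in the other adults. Whether the contrast holds without adult control 1 was not tested. Without larval control 3, 1191 transcripts were called higher and 1183 lower. Adult control 1 and larval control 2 lay apart within their stages, and without both of them, an alternative chosen after the data were seen, 1275 were called higher and 1151 lower.

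Steep differences carried much of the adult counts. In adults 245 transcripts were called with a fitted difference of 100-fold or more, 13.5% of those called higher, and 156 in larvae, 9.50% of those called lower. A fitted fold of this size depends on the prior count where the lower stage has few reads, and 167 of the 245 and 90 of the 156 had more than 3 counts over the 3 libraries of the lower stage. The 245 took 26.2%, 21.1% and 23.9% of adult counts and 0.0318%, 0.0261% and 0.0248% of larval counts. The 156 took 7.07%, 12.5% and 8.73% of larval counts and 0.0515%, 0.0235% and 0.0227% of adult counts. By contrast, the 502 transcripts called 2-fold to 4-fold lower in adults accounted for 14.7% ± 0.207 of what was counted in larvae and 5.21% ± 0.255 in adults (SD, n = 3 each). They held more of the larval counts than the 156 steep ones did. In adults the order was the other way, and the 509 transcripts called 2-fold to 4-fold higher made up 5.59% ± 0.345 (SD, n = 3) of the adult total. All of these lists were chosen on the libraries they describe.

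**Figure D4:**
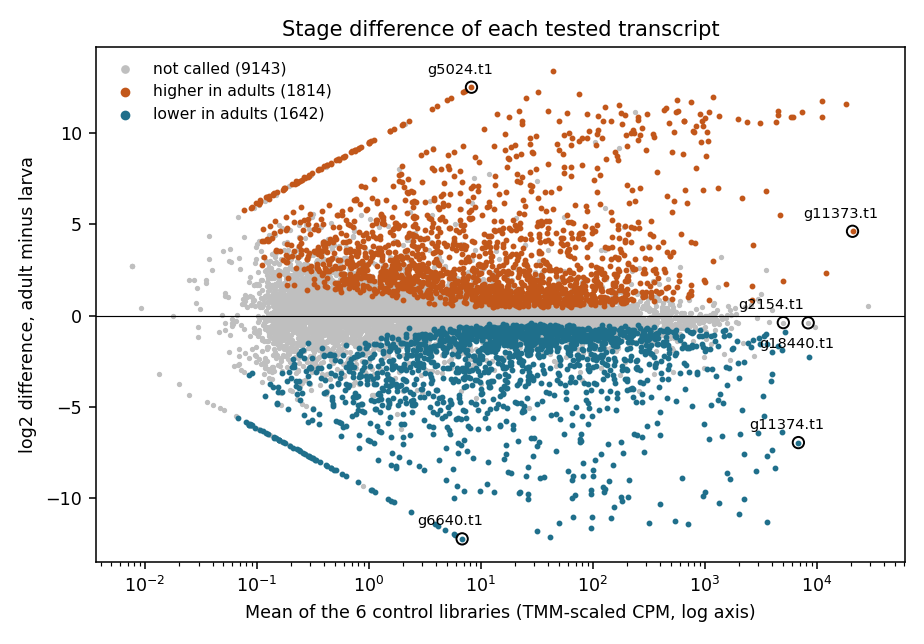
Fitted log2 difference, adult minus larva, of the 12599 tested transcripts against their mean TMM-scaled CPM over the 6 control libraries (log axis); grey points were not called, orange were higher and blue lower in adults, and circles mark the named transcripts. The straight edges are transcripts with 0 counts in 1 stage, whose fitted value depends on the prior count, and the 10 most abundant adult transcripts have a median log2 difference of 10.89.

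Large differences in level did not always mean silence in the other stage. Of the 245 transcripts called 100-fold or more higher in adults, 138 had counts in all 3 larval libraries and 62 had 0 in all 3. Of the 156 called 100-fold or more lower, 72 had counts in all 3 adult libraries and 45 had 0 in all 3. A further pair of lists required 100 CPM or more throughout a stage and under 10 CPM throughout the other. They held 58 adult and 38 larval transcripts. All were called, against 27.4% of all transcripts tested, as the rule nearly requires on the libraries it was applied to. The 58 took 15.1%, 15.4% and 14.5% of adult counts, nearly the same in each library, and 0.0140% ± 0.00193 in larvae (SD, n = 3). The 38 took 3.16%, 4.11% and 3.49% of larval counts and 0.00896% ± 0.00253 in adults (SD, n = 3). All 58 and all 38 had counts in each of the 3 libraries of the low stage, and the median ratio of the stage means was 1079 and 505. The source of these few counts in the low stage was not tested. Without both adult control 1 and larval control 2 the numbers were 70 and 59. Leaving out libraries can only keep or raise numbers under this rule.

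Transcripts that were on in a stage and off in the other were few and took few counts. With at least 10 counts in each library of a stage and 0 in all 3 of the other, 18 were on in adults and 33 on in larvae. They were 0.176% of the 10213 transcripts with 10 counts in every adult library and 0.308% of the 10723 in larvae. Their shares of the counts were 0.0110% ± 0.00484 (SD, n = 3) in adults and 0.00960% ± 0.00201 (SD, n = 3) in larvae. The median level was 4.13 CPM for the 18 and 0.837 CPM for the 33, and the highest were 16.4 and 13.6 CPM. No transcript with a mean above 16.4 CPM met this rule. The test called 17 of the 18 and 31 of the 33, as the rule nearly requires.

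The counts of on/off transcripts depended on the libraries and on the rule. Every library has to pass this rule, so leaving out a library can only keep or raise a count. The 18 became 52 without adult control 1, 29 without adult control 3 and 66 without both adult control 1 and larval control 2. The 33 became 63 without adult control 1, 71 without adult control 2 and 79 without both adult control 1 and larval control 2. With up to 3 counts allowed per library of the off stage there were 45 and 100. With 1 CPM required in each library of the on stage there were 12 and 6, so the order of the stages turned. Among values of 1 to 20 counts, 63.0% to 69.0% per library were even, and whether read pairs were counted as 2 was not given in the sources used here. If they were, a given number of counts stands for fewer fragments, and the folds of g5024.t1 and g6640.t1 over the floor would be smaller. With all counts halved and rounded down, 17 and 30 transcripts met the on/off rule. Adult control 3 had the lowest total, and 10 counts there stand for a higher CPM than in the other libraries.

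The 12 treated libraries, which the on/off rule did not use, were read for the same transcripts. All 18 adult transcripts had at least 10 counts in some of the 6 treated adult libraries and 8 had them in all 6. In treated larvae, 12 of the 18 stayed at up to 3 counts in every library, and the highest count was 10. Of the 33 larval transcripts, all had at least 10 counts in some treated larval library and 9 had them in all 6. In treated adults, 20 of the 33 stayed at up to 3 counts in every library, and the highest count was 18. Every treated library of the on stage lay above every treated library of the off stage, in CPM, for 14 of the 18 and 18 of the 33. The same share over all tested transcripts was not computed, so these 2 numbers have no background to be read against. In the treated libraries the off state was near 0 rather than exactly 0 for many of the on/off transcripts, and the on state was often low.

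The stage lists were also read in the treated libraries, where edgeR called 24.7% of all tested transcripts between stages on-Tc (12.2% higher and 12.5% lower in adults) and 30.7% post-Tc (15.8% and 14.9%). For this the 6 control libraries were fitted alone, which called 1336 transcripts higher and 1224 lower of 11958 tested (11.2% and 10.2%, together 21.4%). The 1336 took 38.2% ± 4.61 (SD, n = 3) of counts in control adults and 2.38% ± 0.103 in control larvae. They took 31.2% ± 3.35 of counts in on-Tc adults and 2.62% ± 0.596 in on-Tc larvae, and 45.7% ± 6.09 in post-Tc adults and 2.30% ± 0.248 in post-Tc larvae (SD, n = 3 each). The 1224 took 34.2% ± 3.03 of counts in control larvae, 32.6% ± 1.87 on-Tc and 35.9% ± 1.07 post-Tc, and 5.20% ± 0.327, 6.01% ± 0.724 and 5.04% ± 1.01 in the adults of the same groups (SD, n = 3 each). In both treatments no adult library overlapped a larval one in these shares.

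Single transcripts of these lists mostly kept their direction there. On-Tc, 1291 of the 1336 were higher in adults by mean log2(CPM + 1) and 1205 of the 1224 lower, and post-Tc 1329 and 1202. The stages did not overlap, in the direction of the list, for 75.6% of the 1336 on-Tc and 88.8% post-Tc, where 20.4% and 22.8% of all tested transcripts had adults above larvae. For the 1224 the values were 80.4% and 81.0%, against 19.9% and 21.99% of all tested transcripts. Most of both lists thus separated the stages in libraries that had no part in choosing them.

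**Figure D5:**
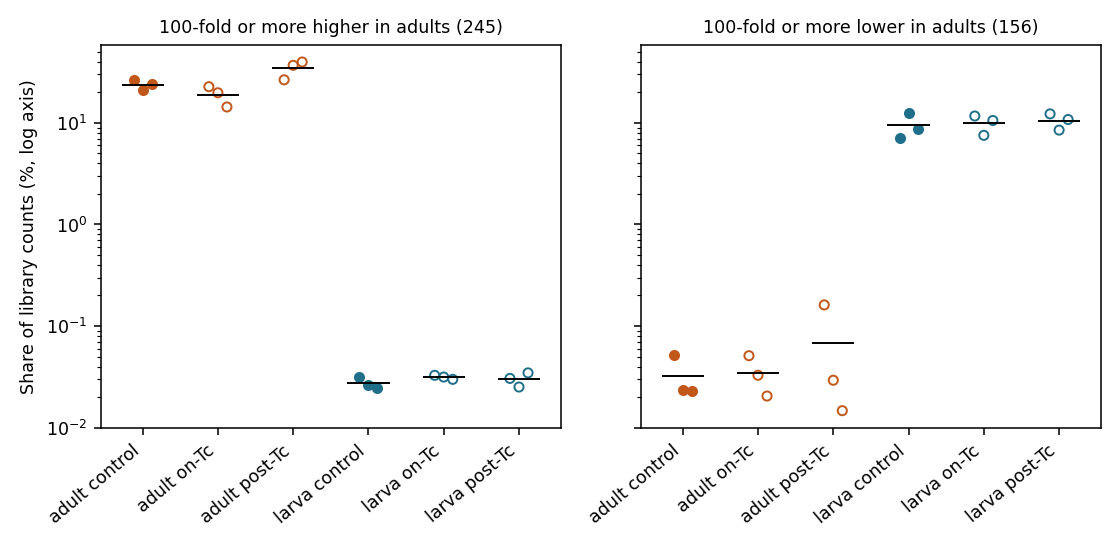
Share of library counts (%, log axis) of the 245 transcripts called 100-fold or more higher in adults and the 156 called 100-fold or more lower, in the 3 libraries of each of the 6 groups; filled points are controls, open points treated libraries, and lines the mean of 3. The first list lies between 14.3% and 39.7% in all adult groups and near 0.03% in larvae, and the second between 7.07% and 12.5% in larval groups.

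Tested directly, the stage difference on tetracycline differed from that of the controls for 0 of 12599 transcripts by edgeR, with 903 (7.17%) at an unadjusted p under 0.05. The count was 47 by DESeq2 and 0 by limma-voom. The post-Tc stage difference, set against the control one, gave 0 by each of the 3 tools, and 655 transcripts (5.20%) had an unadjusted edgeR p under 0.05. These counts do not show that the stage differences were alike. The 245 steep adult transcripts held 18.9% ± 4.25 (SD, n = 3) of counts in on-Tc adults, 23.7% ± 2.55 in controls and 34.3% ± 6.94 post-Tc, and these shares were not tested against each other.

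The library names carry a digit, 1 or 2, whose meaning is not given. All larval controls carry 1, and among adult controls only adult control 2 does. A term for the digit left 1385 called higher in adults and 1188 lower by edgeR. With only libraries of digit 1 in the fit, where adult control 2 is the sole adult control and is assumed to vary like the other groups, it called 511 higher and 427 lower of 13670 tested. The difference for g11373.t1 was then 3.17 on the log2 scale and was not called (edgeR FDR 0.0660), while the other 3 named transcripts that rose or fell were called. Of the transcripts called higher with all libraries, 9 had the opposite sign in that fit, and of those called lower, 0.

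More than 1 transcript was listed for 1015 gene numbers, 2274 transcripts in all. The authors' counting could have split or lost reads shared between such transcripts, so their single values are uncertain.

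Similar levels in both stages could be bounded for part of the transcripts. The approximate 95% interval of the log2 difference lay within -1 and 1 for 3117 transcripts, 24.7% of those tested. Of these, 80 were called, where 27.4% of all tested transcripts were. The rule picks small differences, so the low number of calls is in part given by it. The 3117 took 21.9% ± 3.73 of adult counts and 23.6% ± 2.96 of larval ones (SD, n = 3 each). An abundant transcript outside this group was g2175.t1, picked after its values were seen, at 4196, 10791 and 7530 CPM in adults and 8969, 14084 and 11975 CPM in larvae. The ranges overlapped, and its log2 difference of -0.64 ± 0.41 (SE; edgeR FDR 0.266) had an approximate 95% interval of -1.44 to 0.17.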

How the data were processed

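What the authors deposited is a table of raw counts with a row for each predicted transcript. The submitters' processing notes name Trimmomatic, STAR, featureCounts and DESeq2 but give no versions or settings. Annotation, build, strand setting and handling of read pairs were not given in the sources used here. Columns were matched to samples by library name, and groups came from the titles. No library was a duplicate of another of its stage: chi-square values divided by their degrees of freedom were 427 to 1320.

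The main test was edgeR's (4.0.16, under R 4.3.3). Transcripts passing filterByExpr (minimum count 10, minimum total 15) received TMM factors, and a quasi-likelihood fit of the 6 group means used all 18 libraries for the spread. An FDR under 0.05 (Benjamini-Hochberg, all tested transcripts) was called. Standard errors come from the F statistic, and intervals are 1.96 SE. CPM values of single transcripts are TMM-scaled; shares and numbers of transcripts at a CPM level use library totals. Transcripts detected at equal totals are expected values from the hypergeometric formula. Floors use 3 counts per library and account for counting error alone; reads that carry no molecular identifier are not independent molecules.

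The comparison, the lists and the naming rule were chosen with earlier results of these data known. The naming rule took, per direction, the most abundant called transcript without overlap of the stages and the most abundant called transcript with at least 10 counts in each library of its stage and 0 in the other, plus the 2 most abundant uncalled transcripts with an absolute log2 difference under 0.5. Other settings tried were limma-voom (limma 3.58.1), DESeq2 1.42.0, different scalings, filters and fold thresholds, replicate and library-digit terms, halved counts, sums per gene number and leaving out libraries. Figures were drawn with matplotlib 3.10.9.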

Additional observations from a re-analysis of the deposited data

Results flagged for a closer look

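Outside the 6 control libraries, 21 transcripts with 0 counts in all controls reached 10 or more counts in at least 1 treated library, out of 4595 transcripts at 0 in all 6 controls. These counts lie in libraries that the stage comparison does not use, and they are above the controls by the way the transcripts were chosen. The highest such count was 79, and no transcript of this kind had 10 or more counts in each of the 3 on-Tc adult or each of the 3 on-Tc larval libraries. Groups of 3 libraries are too small for a test of single outlying libraries.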

How the results depend on the processing

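The counts of 1814 transcripts called higher and 1642 lower in adults were 2273 and 1942 with DESeq2, 1867 and 1688 with limma-voom, and 1851 and 1600 with RLE size factors. Leaving out 1 library gave 1191 to 1634 higher and 1163 to 1455 lower, with 1191 without larval control 3. Only libraries of digit 1 gave 511 and 427, from fewer samples. The median log2 difference of all tested transcripts, 0.01, was 0.0282 with RLE size factors, -0.0068 with library totals, 0 without a filter, 0.0019 with a filter of 1 CPM, -0.0086 from the 6 libraries alone, 0.0015 with the digit as covariate, -0.112 with digit 1 only and -0.0312 to 0.0796 leaving out 1 library. Transcripts detected reversed to -201 at each library's own total, and the number at a CPM level reversed to -64.0 at 100 CPM; the cause of the second was not tested.

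Deviations of same-numbered libraries had correlations of -0.0437, -0.174 and -0.0311, and those of other pairs reached 0.134. With 3 libraries a side this cannot decide whether same-numbered libraries were paired, and the titles give only the number. With the replicate block over 18 libraries, 1621 transcripts were called higher and 1457 lower. Over the 6 alone the numbers were 753 and 699, and the median log2 difference was -0.0199. In the block fit of the 6 alone, g11373.t1 had a log2 difference of 4.35 and was not called (edgeR FDR 0.0610). The transcripts g5024.t1, g11374.t1 and g6640.t1 were called in it.

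On/off transcripts numbered 45 and 100 with up to 3 counts allowed in the off stage, 12 and 6 at 1 CPM, 66 and 79 without both adult control 1 and larval control 2, and 23 to 52 in adults and 42 to 71 in larvae leaving out 1 library. Without both of those libraries, 59 larval transcripts had 100 CPM against under 10 CPM. Under both of these rules a left-out library can only keep or raise the number. For the change of the stage difference on tetracycline, DESeq2 called 47 against 0 by edgeR; the cause was not tested. The top-10 share difference was 5.47 to 12.5 percentage points leaving out 1 library, the number of transcripts for 50% of counts -78.3 to -19, transcripts at 1 CPM 25.2 to 406 and transcripts at equal totals 94.98 to 366. With 3 libraries per stage and 19158409 counts in the shallowest, transcripts at a few counts cannot be placed as on or off.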
